A study of Mus musculus with 8 samples.

Results

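Peaks of 2 histone marks were examined at 5 genes that restrain the cell cycle, in cultured mouse germline stem cells grown for about 60 months (60M) or about 5 months (5M). Cdkn2a, Cdkn2b, Cdkn1a, Cdkn1b and Trp53 were represented by 4 genomic intervals of 25 to 60 kb, since Cdkn2a and Cdkn2b lie side by side and share one. Every peak that overlapped an interval was a member, which gave 58 of the 233295 peaks in the 8 lists, 45 for H3K4me3 and 13 for H3K27me3. The intervals were set by position and not by any measured value, and all 58 peaks lay wholly inside them. Their bounds were taken as given for mm9, the assembly whose chromosome lengths the peaks follow, and were not checked against an mm9 annotation. A peak is therefore described by its interval and position, and was not assigned to a promoter, exon or intron. H3K4me3 peaks stood in all 4 intervals in every library of both ages and covered nearly the same length. H3K27me3 peaks recurred only in the Cdkn1b interval, where their covered length differed more between replicates than between ages. At Cdkn2a and Cdkn2b, H3K27me3 was listed in 1 of 4 libraries, and at Cdkn1a and Trp53 in none.

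Germline stem cells are the cultured form of spermatogonial stem cells, which sustain sperm production in the testis. All cells came from Green mice, which carry the EGFP transgene Tg14(act-EGFP)OsbY01, on a DBA/2 background with a wild type genotype per the labels, and all were grown with FGF2, GDNF and fetal bovine serum. Both ages were profiled by chromatin immunoprecipitation sequencing with antibodies against H3K4me3 and H3K27me3, with 2 libraries per mark and age. Whether replicate libraries stem from different cultures is not stated, so their spread may be of technical origin, and which of them had nuclease treatment is not stated either. The study is about ageing of spermatogonial stem cells and the Wnt7b-Jnk pathway, and the question addressed here is how the marks lie on growth-restraining genes after long culture.

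The 5 genes act in linked pathways. Trp53 encodes p53, the transcription factor that halts division or triggers death after DNA damage, and Cdkn1a encodes p21, a cyclin-dependent kinase inhibitor that p53 switches on. Cdkn2a encodes 2 proteins from separate first exons: p16INK4a, which inhibits the kinases Cdk4 and Cdk6, and p19ARF, which restrains Mdm2 and so stabilises p53. Cdkn2b encodes p15INK4b, a further inhibitor of Cdk4 and Cdk6, and Cdkn1b encodes p27Kip1, which inhibits cyclin-Cdk2 complexes. H3K4me3 marks active or poised promoters, most of all those rich in CpG. H3K27me3 is laid down by Polycomb repressive complex 2, for which the Cdkn2a and Cdkn2b locus is a classic target in cultured fibroblasts and stem cells.

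The promoters of these genes differ widely in CpG content, which is why 4 of their sequences are shown. RefSeq promoter windows of GRCm38.p6, running from 250 bases before to 50 bases after an annotated start, were found for all 5 genes, with 7 windows in all because Cdkn2a and Cdkn1a each have 2 starts. The build differs from that of the peaks, so windows and peaks were not placed on each other. The capitals mark CG. The first Cdkn2a window (chr4:89294570-89294869, minus strand) belongs to the upstream start, known as that of p19ARF, and the second (chr4:89282143-89282442, minus strand) to the downstream start, known as that of p16INK4a. The Cdkn1b window is chr6:134920151-134920450 on the plus strand and the Trp53 window is chr11:69580109-69580408 on the plus strand.
Cdkn2a upstream start: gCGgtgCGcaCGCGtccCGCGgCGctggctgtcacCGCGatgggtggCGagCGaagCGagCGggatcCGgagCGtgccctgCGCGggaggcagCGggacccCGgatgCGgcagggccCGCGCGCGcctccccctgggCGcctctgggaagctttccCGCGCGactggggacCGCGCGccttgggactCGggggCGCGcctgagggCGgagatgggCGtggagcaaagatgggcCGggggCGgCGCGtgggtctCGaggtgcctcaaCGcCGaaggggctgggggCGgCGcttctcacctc
Cdkn2a downstream start: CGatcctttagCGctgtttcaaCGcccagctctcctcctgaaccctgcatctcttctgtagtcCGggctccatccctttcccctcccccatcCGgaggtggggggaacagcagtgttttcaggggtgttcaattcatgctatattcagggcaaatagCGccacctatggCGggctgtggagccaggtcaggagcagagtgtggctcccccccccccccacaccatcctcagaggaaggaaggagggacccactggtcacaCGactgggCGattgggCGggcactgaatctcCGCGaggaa
Cdkn1b: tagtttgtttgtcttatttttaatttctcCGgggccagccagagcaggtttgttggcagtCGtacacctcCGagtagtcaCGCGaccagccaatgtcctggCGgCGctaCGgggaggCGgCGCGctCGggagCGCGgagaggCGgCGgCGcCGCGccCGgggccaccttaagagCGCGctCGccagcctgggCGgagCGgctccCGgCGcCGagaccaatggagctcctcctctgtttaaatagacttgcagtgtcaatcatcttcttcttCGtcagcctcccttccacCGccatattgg
Trp53: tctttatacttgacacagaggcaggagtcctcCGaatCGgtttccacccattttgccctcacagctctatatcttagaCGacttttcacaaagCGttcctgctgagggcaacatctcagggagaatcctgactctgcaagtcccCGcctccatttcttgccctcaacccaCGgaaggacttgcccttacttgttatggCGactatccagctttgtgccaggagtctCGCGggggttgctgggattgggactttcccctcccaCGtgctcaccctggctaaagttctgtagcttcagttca

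The upstream Cdkn2a window held 45 CG, a number reached by 1.93% of the 32851 mouse windows in the table, where the median was 7. The Cdkn1b window held 30, a number reached by 11.7%. The downstream Cdkn2a window held 12, the Cdkn2b window 18 and the Trp53 window 10, numbers reached by 39.6%, 29.7% and 43.5% of all windows. The GC box, searched as GGGCGG on both strands, was present in 5 of the 7 windows and in 35.7% of all windows. It was not found in the Trp53 window or in the upstream Cdkn1a window. The CCAAT box, searched as CCAAT on both strands, was present in 3 of the 7 windows, with 3 matches in the Cdkn1b window, and in 37.4% of all windows. The Trp53 window overlapped a window of its neighbour Wrap53 on the opposite strand by 208 bases. These matches describe the letters in the windows and show no binding.

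Cdkn1a has a CpG-poor upstream start with 2 CG in its window and a downstream start with 23. The upstream window (chr17:29090729-29091028, plus strand, GRCm38.p6) is shown because it holds a p53 response element, the sequence through which p53 is known to act on this gene. The element was searched as 2 consensus decamers without a spacer, with 1 mismatch allowed, a search added after the sequence had been seen. The motif reads alike on both strands. The match began at base 200 of the window, counted from the 5′ end, and is in capitals.
Cdkn1a upstream start: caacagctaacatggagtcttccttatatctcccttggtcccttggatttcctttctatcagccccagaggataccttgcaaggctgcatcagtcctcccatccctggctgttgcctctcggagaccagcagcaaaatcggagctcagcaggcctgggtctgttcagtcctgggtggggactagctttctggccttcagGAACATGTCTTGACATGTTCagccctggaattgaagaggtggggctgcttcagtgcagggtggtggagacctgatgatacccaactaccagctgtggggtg
A match of this kind was present in 29 of the 32851 windows (0.0883%) and in no other window of the 5 genes.

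An H3K4me3 list had 41637 to 47415 peaks and an H3K27me3 list 12002 to 14940. Borders run in steps of 1 kb. The maximum immunoprecipitation signal of a peak is the authors' own value and ranks peaks within a list only, because how it was scaled is not stated. It is given below as listed, or as a percentile among all peaks of the same list. Read totals are not in the lists, so depth is unknown, and an absent peak means only that none was called, not that the histones there lacked the mark. Cell type markers could not be placed on these positions and were not analysed here.

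H3K4me3 was listed at all 4 intervals in all 4 libraries, and its position was nearly the same at both ages. Peaks that shared at least 1 bp were merged into 12 H3K4me3 regions, and 11 of these appeared in every library. Across the genome 64.5% of 54585 regions did. No member region was 60M-only (a peak in both 60M libraries and no 5M library), a call made for 4.46% of all regions. None was 5M-only, the reverse, a call made for 10.1%. At these shares, 12 regions would hold few of either kind, so nothing particular to these genes is read from the absence of calls. The summit lay in the same 1 kb bin in all 4 libraries for 10 of the 11 shared regions, against 84.0% of the 35229 shared regions genome-wide. The covered length was equal in all 4 libraries for 6 of the 11, against 65.0% genome-wide.

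**Figure D1:**
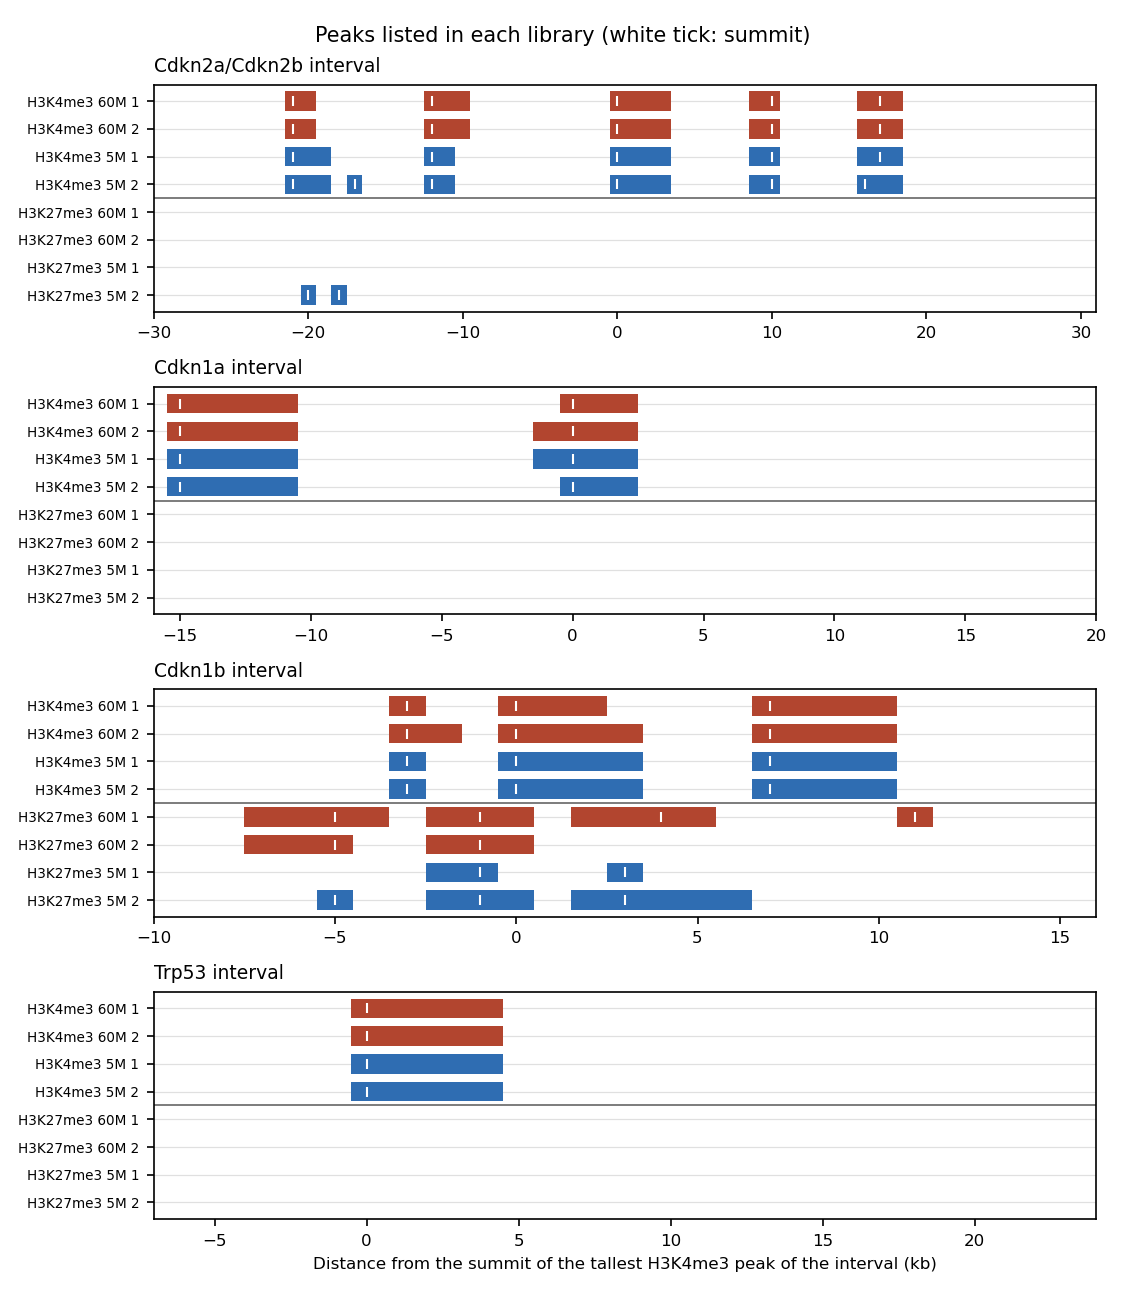
Each row is a library, with 60M in red above 5M in blue for each mark, and each box is a listed peak with its summit as a white tick. The horizontal axis is the distance in kb from the summit of the tallest H3K4me3 peak of the interval. H3K4me3 peaks recur at the same places in all 4 libraries, and H3K27me3 peaks recur only in the Cdkn1b interval.

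Summed over the intervals, H3K4me3 peaks covered 35 and 38 kb in the 60M libraries, compared with 37 and 37 kb in the 5M libraries. Mean and SD over the 2 libraries were 36.5 ± 2.12 kb for 60M and 37 ± 0 kb for 5M, and the difference of -0.5 kb was smaller than the spread at 60M. The exact permutation test (two-sided) had p = 1. With 2 libraries per age it cannot go below 0.333, so it could make no call. Peaks from a culture in bulk cannot tell fewer cells that carry a mark from less of the mark per cell. The median width of the member peaks was 3 and 4 kb in 60M cells, compared with 4 and 3 kb in 5M cells, where it was 2 kb in every full H3K4me3 list. The median strength percentile was 78.0 and 79.0 at 60M and 83.7 and 79.3 at 5M.

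**Figure D2:**
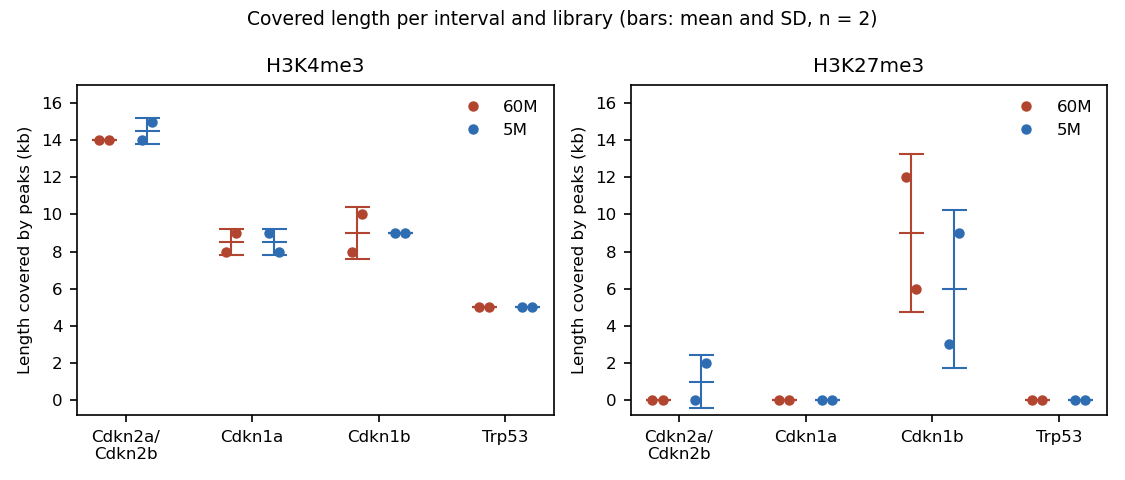
Points give the length in kb covered by peaks in each library, for H3K4me3 (left) and H3K27me3 (right), with 60M left of 5M in each interval. Horizontal bars and whiskers are the mean and SD of 2 libraries. The H3K4me3 values of the ages overlap or are equal in every interval, and the H3K27me3 values of 12 and 6 kb at 60M overlap those of 3 and 9 kb at 5M in the Cdkn1b interval.

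The Trp53 interval held 1 wide H3K4me3 peak with the same borders in all 4 libraries. It spanned 5 kb of chromosome 11 (69391000 to 69395999), with its summit at 69391500, in the first 1 kb bin. Its signal maximum was 644.9 and 609 in the 60M libraries, against 701.8 and 634 in the 5M libraries. These values stood at percentiles 93.8 and 94.9 of the 60M lists and at percentiles 96.2 and 94.7 of the 5M lists, so the peak was among the tallest of every list. Peaks of at least 5 kb made up 3.50% and 3.65% of the 60M lists and 2.61% and 2.92% of the 5M lists. In GRCm38.p6 Trp53 stands between Wrap53, which encodes a telomerase-associated protein, and Atp1b2, a subunit of the sodium pump. No further H3K4me3 peak was listed in this 30 kb interval, and the next began 3 kb above its upper border in all 4 libraries.

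H3K27me3 was not listed in the Trp53 interval in any library. The nearest H3K27me3 peak lay 175 and 361 kb from the interval in the 60M libraries, compared with 178 and 174 kb in the 5M libraries. The 60M library 2 value stood apart from the rest, which were within 4 kb of each other. Whether these distances are unusual for the genome was not tested.

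The Cdkn1a interval held a pair of H3K4me3 regions separated by 9 kb. The first, on chromosome 17 (29215000 to 29219999), was 5 kb wide in all 4 libraries and began at the lower border of the interval. Its signal maximum was 412.1 and 452.4 at 60M and 342.1 and 372 at 5M, at percentiles 73.3 and 78.4 of the 60M lists and at percentiles 69.8 and 73.7 of the 5M lists. The second region (29229000 to 29232999) was the taller, with 667.2 and 677.4 at 60M and 660.4 and 636.3 at 5M. It stood at percentiles 95.2 and 98.9 at 60M and at percentiles 93.7 and 94.8 at 5M. It covered 3 and 4 kb in the 60M libraries, compared with 4 and 3 kb in the 5M libraries, so its lower border moved by 1 kb between replicates of either age. In GRCm38.p6 the neighbours of Cdkn1a are Trp53cor1, a long non-coding RNA that p53 induces, and Rab44, a small GTPase gene. Their share in the pair of regions was not tested.

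No H3K27me3 peak was listed in the Cdkn1a interval in any library. The nearest lay 175 and 298 kb away at 60M and 298 and 14 kb away at 5M, so that 5M library 2 alone listed one close by. The replicates of an age differed more than the ages did.

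The Cdkn2a and Cdkn2b interval, 60 kb of chromosome 4, held the most H3K4me3 regions, 5 of them listed in all 4 libraries. The tallest lay in the middle (88939000 to 88942999) and was 4 kb wide in every library. Its maximum was 680.1 and 594.2 at 60M and 721 and 677.4 at 5M, at percentiles 96.0 and 93.7 of the 60M lists and at percentile 97.1 of both 5M lists. The next in height, at the upper end (88955000 to 88957999), was 3 kb wide in every library and reached 501.9 and 457.8 at 60M and 525.1 and 502.4 at 5M. It was the shared region whose summit bin differed, lying at 88955500 in 5M library 2 and at 88956500 in the others. A smaller region between them (88948000 to 88949999) was 2 kb wide in every library, with 253.1 and 266 at 60M and 286.2 and 272.6 at 5M. Both genes are transcribed from the minus strand in GRCm38.p6, Cdkn2b lies above Cdkn2a, and Gm12610 overlaps Cdkn2b. Which start each region belongs to was not tested.

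The other shared regions of this interval were the H3K4me3 members whose width separated the ages. The region at 88927000 to 88929999 covered 3 kb in both 60M libraries and 2 kb in both 5M libraries, because the bin at its upper end was listed at 60M alone. Its maximum was 462.1 and 421.9 at 60M and 423.2 and 378.5 at 5M. The region at 88918000 to 88920999 went the other way, with 2 kb in both 60M libraries and 3 kb in both 5M libraries. Its maximum was 222.3 and 383.6 at 60M and 286.2 and 260.2 at 5M. Thus 1 of 11 shared member regions was called wider at 60M, where 7.43% of all shared regions were, and 1 of 11 was called narrower, where 2.49% were. Each call rests on a single 1 kb bin, and 1 region of 11 cannot be told from these backgrounds. In the summed length the changes cancelled, at 14 and 14 kb for 60M, against 14 and 15 kb for 5M.

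Weak peaks of 1 kb were listed among these regions in 5M library 2 alone. One was an H3K4me3 peak (88922000 to 88922999) with a maximum of 76.4, at percentile 21.7 of its list. The others were H3K27me3 peaks at 88919000 to 88919999 and 88921000 to 88921999. Both had a maximum of 32.2, at percentile 6.36, and −log10 p-values against the control of 3.33 and 4.7, where the lowest value in any list was 3.01. The first of them lay within the H3K4me3 region that was 3 kb wide at 5M. No other H3K27me3 list held a peak in the 60 kb interval, and the nearest lay 381 and 382 kb away at 60M and 383 kb away in 5M library 1. H3K27me3 therefore covered 0 and 0 kb in 60M cells, compared with 0 and 2 kb in 5M cells (exact two-sided permutation test, p = 1). Both peaks dropped out when the lists were shortened to equal length or held to a −log10 p of at least 5.

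The Cdkn1b interval was the one with peaks of both marks in every library. It held 3 H3K4me3 regions on chromosome 6 and 4 H3K27me3 regions, of which 2 overlapped H3K4me3 regions and 2 did not. The tallest H3K4me3 region (134869000 to 134872999) covered 3 and 4 kb in 60M cells, compared with 4 and 4 kb in 5M cells. Its maximum was 593.5 and 622.7 at 60M and 640 and 617.7 at 5M, at percentiles 89.8 and 95.8 of the 60M lists and at percentiles 92.3 and 93.5 of the 5M lists. A second region above it (134876000 to 134879999) was 4 kb wide in every library, with 454.1 and 558.3 at 60M and 530.3 and 522 at 5M. A small region below it (134866000 to 134867999) covered 1 and 2 kb in 60M cells, compared with 1 and 1 kb in 5M cells, with 75.7 and 160.4 at 60M and 102.5 and 92.7 at 5M. The summed H3K4me3 length was 8 and 10 kb in 60M cells, compared with 9 and 9 kb in 5M cells (p = 1, exact two-sided permutation test). In GRCm38.p6 Cdkn1b stands between 2810454H06Rik and Lockd, a long non-coding RNA gene.

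Of the H3K27me3 regions in the Cdkn1b interval, only that at 134867000 to 134869999 was listed in all 4 libraries. It covered 3 and 3 kb in 60M cells, compared with 2 and 3 kb in 5M cells, with its summit at 134868500 each time, directly below the summit bin of the tallest H3K4me3 peak. Its maximum was 82.6 and 60.9 at 60M and 49.4 and 58.7 at 5M. These values stood at percentiles 93.5 and 80.1 of the 60M lists and at percentiles 59.6 and 70.7 of the 5M lists. The share of all regions with such a split of the ages was not computed, so nothing is read from these percentiles. Ranks in lists of different lengths show no change, and strength was not tested. Its −log10 p against the control was 11.89 and 6.5 at 60M and 6.14 and 7.14 at 5M, which overlapped.

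The lower H3K27me3 region (134862000 to 134865999) was listed in 3 libraries. It covered 4 and 3 kb in 60M cells, compared with 0 and 1 kb in 5M cells, the member with the clearest separation of the ages. Its maximum was 71 and 60.3 at 60M and 51.1 in the 5M library that listed it. Of all 26634 H3K27me3 regions, 6.74% had a longer covered length in each 60M library than in each 5M library, as did 1 of the 6 member regions. The reverse held for 10.7% of all regions and for none of the 6. With 6 regions, 1 such call is near the background. The upper region (134871000 to 134875999) went no clear way, with 4 and 0 kb in 60M cells, compared with 1 and 5 kb in 5M cells. A 1 kb peak at 134880000 to 134880999 was listed in 60M library 1 alone, with a maximum of 55.8.

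Summed over the Cdkn1b interval, H3K27me3 covered 12 and 6 kb in 60M cells, compared with 3 and 9 kb in 5M cells. Mean and SD over the 2 libraries were 9 ± 4.24 kb for 60M and 6 ± 4.24 kb for 5M, and the ages overlapped (exact two-sided permutation test, p = 0.667). Over all 4 intervals the length was 12 and 6 kb in 60M cells, compared with 3 and 11 kb in 5M cells, with means of 9 ± 4.24 and 7 ± 5.66 kb (p = 0.667, exact two-sided permutation test). The next H3K27me3 peak below the Cdkn1b interval lay 276 kb away in both 60M libraries and 277 and 275 kb away at 5M. The next above it lay 40 and 43 kb away at 60M and 44 and 43 kb away at 5M.

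**Figure D3:**
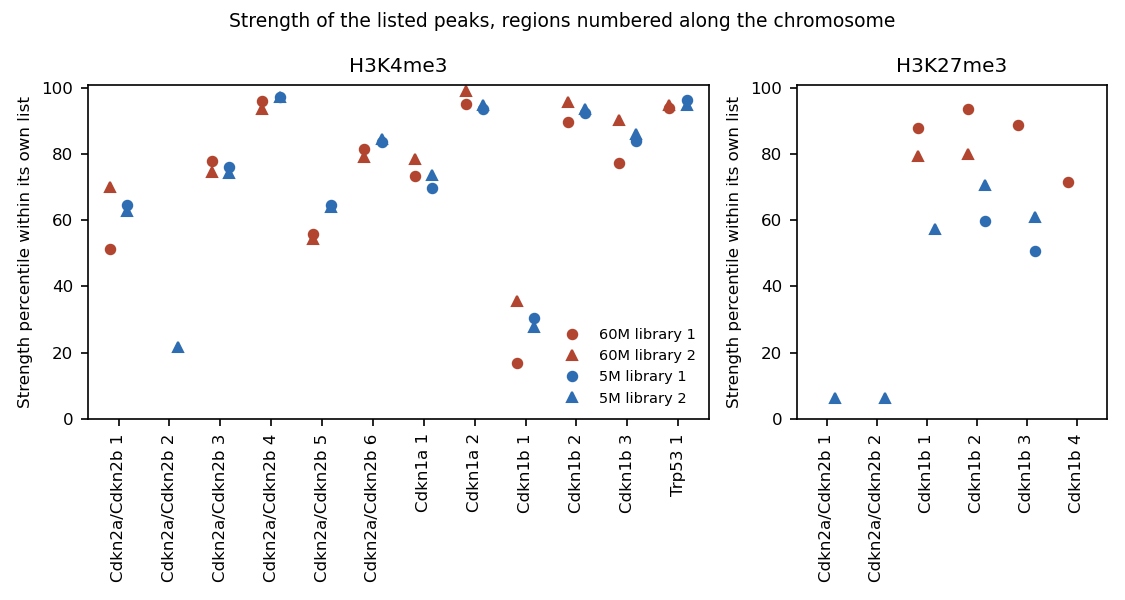
Points give the strength percentile of each listed peak among all peaks of its own list, for H3K4me3 regions (left) and H3K27me3 regions (right), numbered along the chromosome within an interval. Red is 60M, drawn left of 5M in blue, circles are library 1 and triangles library 2. The tallest H3K4me3 region of each interval lies between 89.8 and 98.9 in every library. The H3K27me3 peaks at Cdkn1b lie at 50.7 to 93.5 over both ages. They belong to different regions, not all listed in every library, and strength was not tested between the ages.

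Counted over the H3K27me3 lists, 1 of the 6 member regions was listed in all 4 libraries, 2 in 3 libraries and 3 in a single library. The share listed in all 4 was 18.6% over the genome. No member was called 60M-only, against 4.39% of all H3K27me3 regions, and none 5M-only, against 6.02%. The shared region was called neither wider at 60M, as 8.28% of all shared regions were, nor narrower, as 16.7% were. The H3K27me3 peaks stood less far above their controls by the authors' p-values. Of the 45 H3K4me3 peaks, 42 stood at the ceiling of 15.95 of the −log10 p against the control. None of the 13 H3K27me3 peaks did. In the full lists 69.6% to 78.5% of the H3K4me3 peaks and 1.83% to 4.71% of the H3K27me3 peaks stood there. The contrast between the marks is thus found genome-wide, and nothing particular to these genes is read from it.

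Peaks of both marks overlapped in the Cdkn1b interval. The H3K4me3 regions at 134866000 to 134867999 and 134869000 to 134872999 had both marks at both ages, where a mark counted as present when both libraries of the age had a peak that overlapped the region. These were 2 of 11 regions listed in both 60M libraries, against 5.53% of all such regions, and 2 of 11 listed in both 5M libraries, against 7.28%. The pair lies 1 kb apart and shares 1 H3K27me3 region, so the 2 are not independent. The small one counts only because 60M library 2 listed it as 2 kb wide. In 60M library 1 and both 5M libraries its H3K4me3 peak ended at 134866999, and no H3K27me3 peak overlapped that peak. The region at 134876000 to 134879999 overlapped no H3K27me3 peak in any library, although peaks abutted it above in 60M library 1 and below in 5M library 2.

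In 1 kb bins the overlap was a single bin at each age, and not the same one. Bins listed in both libraries of both marks were 134869000 to 134869999 at 60M and 134872000 to 134872999 at 5M, on opposite sides of the tallest H3K4me3 region. In the 60M libraries the bin at 134872000 had H3K4me3 in library 2 and H3K27me3 in library 1, and in the 5M libraries the bin at 134869000 had H3K27me3 in library 2 alone. Bins with both marks made up 1 of 8 kb of H3K4me3 at Cdkn1b (12.5%) in 60M cells and 1 of 9 kb (11.1%) in 5M cells. Genome-wide they made up 2.93% and 4.30% of the H3K4me3 bins listed in both libraries, at 60M and 5M. As a share of H3K27me3 they made up 1 of 6 kb (16.7%) at Cdkn1b in 60M cells, against 15.5% genome-wide, and 1 of 3 kb (33.3%) in 5M cells, against 19.3% genome-wide. Each share rests on a single bin, and nothing particular to Cdkn1b is read from it. The Cdkn2a/Cdkn2b, Cdkn1a and Trp53 intervals held no such bin at either age.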

How the data were processed

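The build was mm10 and the tools Bowtie 1.1.2 and CASAVA 1.8.4, per the submitters' processing notes, but 1331 peaks end beyond mm10 chromosomes and 2 beyond mm9 ones, by at most 688 bp (lengths from GenomeInfoDb 1.38.1). Positions were therefore read as mm9 and printed as listed. Which peak caller was used is not given. For every library the authors deposited 1 list of peaks, with a maximum immunoprecipitation signal, 2 columns of −log10 p-values and a q-value of at most 0.00097, per the file headers. These were not recomputed.

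Peaks overlapping the intervals by at least 1 bp were taken with scipy 1.17.1, pandas 2.3.3 and numpy 2.4.6 under Python 3.11.15, and drawn with matplotlib 3.10.9. Within a mark, peaks sharing at least 1 bp were merged into regions over all 4 libraries, and the same calls were made over all regions as background. Wider or narrower means that both libraries of one age exceeded both of the other in covered bases. The code was tested on simulated lists. The members, rules and lists were chosen with earlier results of these data known. The genes named are the 5 members and their neighbours in the RefSeq table of GRCm38.p6. No gene was placed by mm9 coordinates, and other pathway genes were not analysed here. Alternatives were shortened lists, a −log10 p of at least 5, merging of peaks less than 1 kb apart, peaks wholly inside an interval, leaving out a library and a replicate block.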

Additional observations from a re-analysis of the deposited data

How the results depend on the processing

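A count was taken as moved when it changed by more than 1.5 times, and a difference in covered length when it changed by at least the SD between replicates. By this measure 12 of the recomputed counts and summed lengths moved and 68 did not, and 8 of those for single intervals moved and 48 did not. Part of the unmoved values could not have moved. Every member peak lay wholly inside an interval, so that setting repeated the main one. A replicate block leaves a difference of means as it is, and no member regions stood close enough for the merging to join them. The tallies therefore overstate how much was put to the test. The SD of the H3K27me3 length is wide, so its summed difference of 2 kb counts as unmoved even where the sign turned. That difference was 3 kb with shortened lists and 3.5 kb with a −log10 p of at least 5, and both settings took the H3K27me3 difference at Cdkn2a and Cdkn2b to 0, against -1 kb in the full lists. Merging was run on the region counts alone and changed none of them. It joined only peaks with less than 1 kb between them, so with borders in 1 kb steps only abutting peaks were joined. Member regions 1 kb apart, such as the pair with both marks at Cdkn1b, stayed separate. How the counts change when such regions are joined was not tested. With a −log10 p of at least 5 against the control, 1 H3K27me3 region was 60M-only, because the 5M peak at 134864000 to 134864999, with 4.34, dropped out. The other moved counts and summed lengths came from leaving out a library, mostly when the remaining library of that age decides alone. H3K27me3 regions were then 0 to 2 for 5M-only (2 without 5M library 1, 1 without 60M library 1) and 0 to 1 for 60M-only (1 without 60M library 2 or without 5M library 2). H3K4me3 regions were 0 to 1 for 5M-only (1 without 5M library 1) and 0 for 60M-only. The summed H3K4me3 difference ran from -2 kb without 60M library 2 to 1 kb without 60M library 1, and that of H3K27me3 from -2 kb without 5M library 1 to 6 kb without 5M library 2, so the sign of both turned. Wider H3K4me3 regions were 1 to 2 (2 without 60M library 1) and narrower ones 1 to 2 (2 without 60M library 2). Regions with both marks, with the library of that number left out for both marks, were 1 to 2 at 60M and 1 to 3 at 5M (1 for each without 60M library 2, 3 at 5M without 5M library 1). The 5M count of both marks fell without 60M library 2 because that library alone set the upper border of a merged region. These width and both-mark recounts were added after the data were seen.

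The replicate numbers were not shown to pair the libraries. The differences between libraries 1 and 2 at 60M and at 5M, over all shared regions, correlated at 0.00681 for H3K4me3 and -0.0435 for H3K27me3. With a replicate block the summed differences were -0.5 kb and 2 kb, and an exact sign-flip test gave p = 1 for each, where the smallest possible is 0.5. Depth is unknown, and borders in 1 kb bins limit every length.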
